A study of Homo sapiens with 10 samples.

Results

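The libraries compared here were neural progenitor cells (NPC) carrying knockouts of STAMBP and the unedited cells of the same line. STAMBP encodes an enzyme that removes ubiquitin chains from proteins at endosomes. The rule took every library titled KO1 or KO2, 2 of each, and the 2 WT libraries at the stage labelled P3, which makes 6 of the 10 libraries of the series. The genotype labels are WT for the controls and STAMBP-KO for both edited lines. All 6 come from the human embryonic stem cell line H1, whose tissue label is blastocyst, and carry the cell type label NPC. The labels give neither the edit itself, nor whether each line is 1 clone, nor the meaning of P3. The other 4 libraries were knockout cells in which STAMBP was added back or CFLAR was added. They entered the filter on low counts, the scaling and the estimate of spread, but not the comparison itself. The labels do not say that libraries of a line came from separate cultures, so the p-values reflect how far apart the libraries of a line lie, and that distance may be purely technical.

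Neural progenitors of the developing forebrain keep SOX1, SOX2 and PAX6 on while they divide, and give rise to neurons and glia. Surface ectoderm arises beside the neural plate from the same germ layer and forms epithelia under TP63, GATA3 and TFAP2 factors. The types of cell can differ in the receptors and ligands they use, but no signalling pathway named below is taken as exclusive to either type. The types of cell also differ in lipids, in surface sugars and in the enzyme variants that carry out shared steps of metabolism.

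Total counts of the 6 libraries ran from 16495116 to 19683611. Levels are given as CPM, counts relative to library size, with library sizes scaled by TMM, a correction for composition. The scaling factors were 1.04 in both WT libraries and 0.915 to 0.929 in the knockouts. STAMBP, on chr2:73828916-73873659 (GRCh38, plus strand), was at 43.4 and 47.2 CPM in WT, 19.5 and 16.9 in KO1 and 19.2 and 18.9 in KO2. Every knockout library was below both WT libraries, with a log2 change of -1.28 ± 0.07 (SE), adjusted p = 6.7e-10. Transcript was thus still counted in the knockouts at 18.6 CPM, and the counts do not show what protein it encodes. In text and figures, SE is the absolute log2 change divided by the square root of F from edgeR's quasi-likelihood test. It is not a fitted standard error and is too small where a group has few counts. Across the genome 16055 of 21063 genes tested had an adjusted p under 0.05 in edgeR's quasi-likelihood test (76.2%), 7750 of them higher in the knockouts (36.8%) and 8305 lower (39.4%). At a change of 2-fold or more, 44.1% of genes were called, 20.0% higher and 24.1% lower. The libraries of the groups did not overlap for 16825 genes (79.9%). The lines differed from each other at 33 genes (0.157%), while 1196 genes had an unadjusted p under 0.05. No gene named below with values was among those 33.

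With so many genes past the test, a count of changed list members is read here against the 36.8% and 39.4% of all genes. Statements that the groups did not overlap are to be read against the 79.9% of all genes. Genes named by rule had the largest changes of their lists, so their separation is a description. The lists of largest median change were glutamatergic neuron genes on the lower side and epithelial and amnion or trophoblast genes on the higher side, and most metabolic lists lay close to 0. The median log2 change was -0.04 over all genes tested. Bulk RNA cannot tell fewer cells of a type from less RNA per cell. Epithelial and neural markers moved with every result on signalling and metabolism that follows, and their part in those results was not tested.

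**Figure D1:**
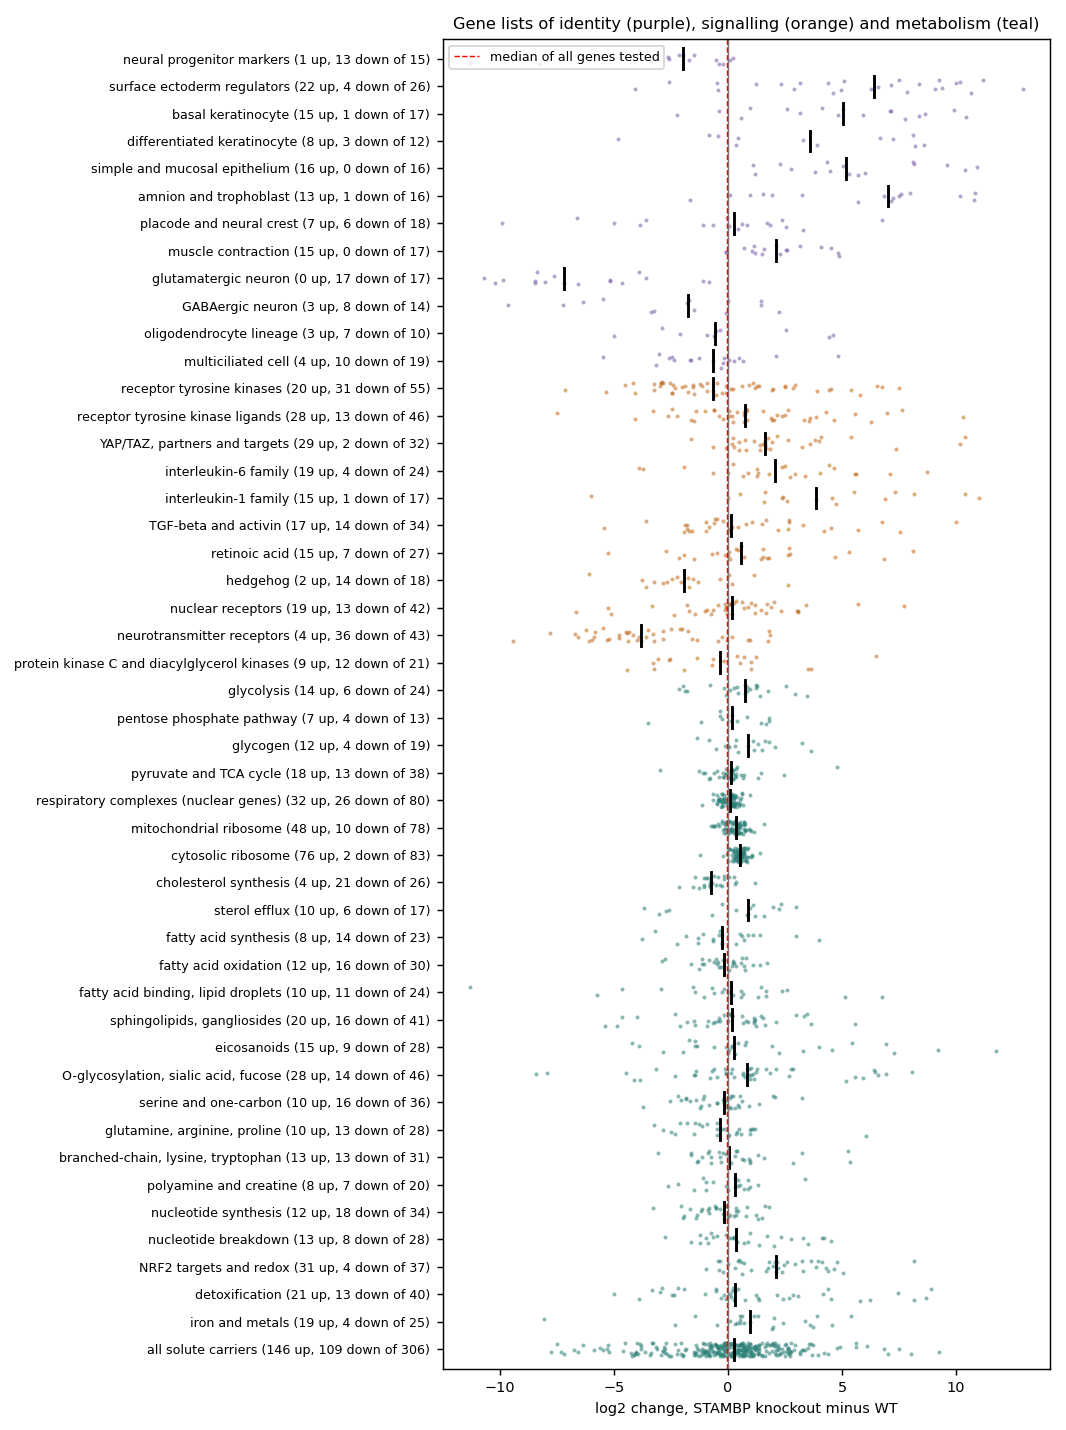
Log2 change (knockout minus WT, x axis) of each tested member of 48 gene lists, 1 point per gene, with the list median as a black bar and the median of all genes as a dashed line. Glutamatergic neuron genes lie lowest (median -7.21), surface ectoderm regulators (6.42) and amnion and trophoblast genes (7.0, or 6.26 with genes at 0 counts set to their bound) highest, and the respiratory complexes sit near 0. Points for genes with a group at 0 counts depend on the prior count of the fit.

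The label NPC was checked against 15 progenitor markers. In the knockouts 13 fell and 1 rose, with a median log2 change of -1.99, while their summed level went from 6268 to 6521 CPM in WT to 3695 to 3732 CPM in the knockouts. Most of the knockout sum was the filament gene VIM, at 2259 CPM, so the sum understates the fall of the other markers. SOX2, which maintains neural stem cells, was at 297 and 297 CPM in WT, 26.7 and 28.5 in KO1 and 29.96 and 28.6 in KO2. SOX1, the earliest pan-neural SOX gene, fell from 147 to 0.48 CPM (log2 change -8.24 ± 0.09 (SE), adjusted p = 7.7e-18), and LHX2, a cortical selector, fell from 302 to 11.1 CPM (log2 change -4.77 ± 0.06 (SE), adjusted p = 3.0e-17). The knockout libraries were lower for all 3, with no overlap. PAX6, the eye and forebrain regulator, was at 181 and 182 CPM in WT, 211 and 204 in KO1 and 212 and 207 in KO2. It was slightly higher in every knockout library (log2 change 0.2 ± 0.03 (SE), adjusted p = 5.6e-05), a call that was lost when libraries were scaled by size alone. Of the filament genes, named after their values were seen, NES fell from 774 to 661 CPM and VIM stood at 2159.8 and 2259 CPM without passing the test (adjusted p = 0.055), with its sign turned by scaling to library size alone. The knockout libraries labelled NPC therefore kept PAX6, VIM and most NES transcript, with SOX1, SOX2 and LHX2 far lower.

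Among epithelial lists the knockouts carried basal, simple and mucosal genes together. Of 26 surface ectoderm regulators 22 rose and 4 fell (median log2 change 6.42). Of 17 basal keratinocyte genes 15 rose and 1 fell (median 5.03, or 4.84 with genes at 0 counts set to their bound). Of 24 listed genes of simple and mucosal epithelium 16 were tested, and all 16 rose (median 5.17, or 4.82 at the bound). With no filter on low counts, 17 rose and 1 fell of 24 (median 4.17). Of 27 listed genes of differentiated keratinocytes 12 were tested, of which 8 rose and 3 fell (median 3.59, or 3.19 at the bound). A gene near 0 in WT passed the filter only if it was high enough in other libraries, which favours rises among tested genes. The epithelial lists were written with their rise in these libraries already known, so their direction is no independent evidence.

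GATA3, a surface ectoderm and trophoblast regulator, had 1 count in both WT libraries together and stood at 77.8 CPM in the knockouts, 2923-fold (95% counting interval 524 to 115477) higher. Intervals and floors in this text cover counting error only. EHF, an ETS factor of epithelium, was at 0.116 and 0.0489 CPM in WT, 136 and 139 in KO1 and 138 and 149 in KO2. SFN, the 14-3-3 protein of stratified epithelium, was at 0.175 and 0.196 CPM in WT, 268 and 264 in KO1 and 281 and 256 in KO2. Both sat under 1 CPM in WT and far above it in every knockout library. TFAP2C, an AP-2 factor of surface ectoderm and trophoblast, fell from 39.8 to 28.6 CPM. KRT19, a keratin of simple epithelium, was at 0.698 and 0.636 CPM in WT, 1307 and 1267 in KO1 and 1345 and 1276 in KO2, and MUC16, a large mucin of the ocular and genital surface, at 0.466 and 0.147 CPM in WT, 388 and 378 in KO1 and 438 and 408 in KO2. Both were absent or nearly so from WT and abundant in all 4 knockout libraries.

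The paired keratins that define basal epidermis were close to absent. KRT5 was at 1.51 and 1.76 CPM in WT, 1.05 and 1.3 in KO1 and 1.26 and 1.39 in KO2 and did not pass the test (adjusted p = 0.19). Its partner KRT14 had no count in WT and 0.96 CPM in the knockouts, at least 12-fold higher against the floor of 3 counts over the WT libraries. TP63, the basal cell regulator, was at 0.175 and 0.391 CPM in WT, 57.8 and 49.1 in KO1 and 53.4 and 57.1 in KO2, and KRT17, the keratin of wounded and appendage epidermis, rose from 2.61 to 74.9 CPM (log2 change 4.84 ± 0.09 (SE), adjusted p = 1.5e-15). These 4 were named after their values were seen. In differentiated keratinocyte genes, ABCA12, the epidermal lipid transporter, rose from 0.56 to 166 CPM and SPRR3, an envelope protein of oesophagus, from 0.965 to 151 CPM. IVL, the envelope scaffold involucrin, had 3 counts in WT and was 416-fold (95% counting interval 142 to 2019) higher, at 33.2 CPM.

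Amnion and trophoblast genes rose in part. Of 30 listed genes 16 were tested, 13 rose and 1 fell. ITGB6, an epithelial integrin, was at 0.116 and 0.196 CPM in WT, 296 and 284 in KO1 and 294 and 298 in KO2. VTCN1, an immune checkpoint ligand found on amnion and trophoblast, was at 0.757 and 0.538 CPM in WT, 159 and 168 in KO1 and 161 and 169.9 in KO2. ELF5, a trophoblast stem cell regulator, had no count in WT and 12.3 CPM in the knockouts, at least 154-fold higher. All of these were separated between the groups in every library. Among genes named after their values were seen, ISL1, an amnion regulator, fell from 0.965 to 0.308 CPM (log2 change -1.68 ± 0.47 (SE), adjusted p = 0.0047), a call lost without the second WT library (log2 change -1.32), while HAND1, CDX2, GCM1 and the chorionic gonadotropin beta genes CGB3 and CGB5 were too low to test. HLA-G, of invasive trophoblast, was at 6.44 CPM in the knockouts with 1 count in WT.

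Lists of other lineages gave different counts. In the placode and neural crest list 7 genes rose and 6 fell of 18 (median 0.24), and with libraries scaled by size alone 7 rose and 7 fell. SIX4, a placode gene, rose from 6.36 to 60.9 CPM, while SOX9, used in crest and glia, fell from 384 to 177 CPM and DCT, of pigment cells, from 45.6 to 0.475 CPM. Of 20 listed genes of contraction 17 were tested, of which 15 rose and none fell (median 2.11). At 10 CPM or more they were led by the smooth muscle genes CNN1, from 0.774 to 17.6 CPM, and TAGLN, from 6.97 to 62.6 CPM. The skeletal muscle regulators MYOD1 and MYOG were too low to test. The endothelial list had 6 rises and 3 falls among 10 tested genes. KDR, a VEGF receptor, rose from 3.35 to 25.4 CPM, and MMRN1, of lymphatic vessels and platelets, fell from 21.1 to 2.04 CPM, while the defining genes PECAM1 and CDH5 (named after their values were seen) stayed at 2.43 and 0.696 CPM in the knockouts.

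Blood cell genes were nearly all too low to test, with 3 rises and 2 falls among 5 of 17. CSF1R, the receptor of macrophages and of trophoblast, had 3 counts in WT and 15.5 CPM in the knockouts, 194-fold (95% counting interval 66.2 to 942) higher, while PTPRC, of all leukocytes and named after its values were seen, was at 0.0945 CPM. In the lung, gut and liver list 9 of 24 genes were tested and 7 rose, none reaching 10 CPM. Its one faller, TTR, the transthyretin of choroid plexus and liver, fell from 19.1 CPM in WT to 1 count over the 4 knockout libraries, 1256-fold (95% counting interval 225 to 49693) lower. Of 19 multiciliated cell genes 4 rose and 10 fell (median -0.68), among them the axonemal genes HYDIN, from 23.4 to 7.45 CPM, and CCDC40, from 18.3 to 5.82 CPM. In the oligodendrocyte list 3 of 10 rose and 7 fell. MBP rose from 2.27 to 54.3 CPM, and its locus also gives rise to transcripts used outside myelin, whereas CNP fell from 117 to 76.2 CPM.

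Neuron genes were mostly lower. All 17 glutamatergic genes fell, and their summed level went from 1141 to 1144 CPM in WT to 38.6 to 41.1 CPM in the knockouts. NEUROD2, a cortical neuron factor, was at 115 and 129 CPM in WT, 0.275 and 0.195 in KO1 and 0.0661 and 0.0577 in KO2, and BHLHE22 at 117 and 117 CPM in WT, 0.11 and 0.0652 in KO1 and 0 and 0.173 in KO2. Both had almost no counts in any knockout library. The GABAergic list was smaller in level and mixed, with 8 of 14 down and 3 up (median -1.76). CALB2, the calcium-binding protein calretinin of some interneurons, fell from 24.7 to 7.55 CPM. None of the 39 HOX genes, which give position along the trunk and hindbrain, was high enough to test. Their counts summed to between 9 and 19 per library in WT and knockouts alike.

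**Figure D2:**
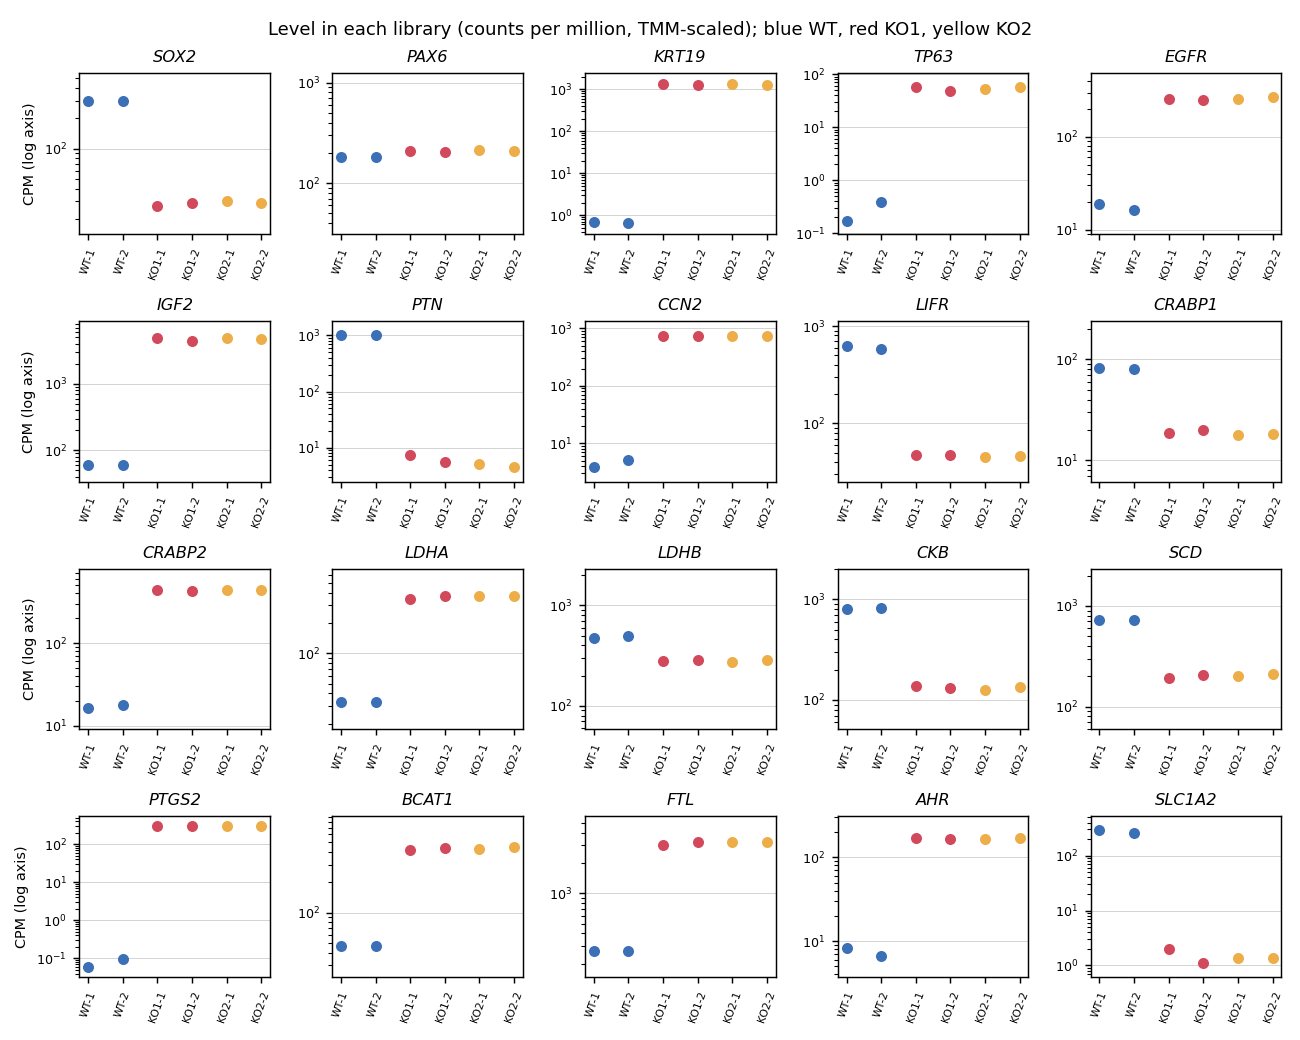
Level in each of the 6 libraries (CPM, log axis; blue WT, red KO1, yellow KO2) of 20 genes, 1 panel per gene. The 4 knockout libraries lie together in every panel and apart from both WT libraries, from a shift of 181 to 208 CPM in the means for PAX6 to 0.078 to 301 CPM for PTGS2.

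Receptor tyrosine kinases changed in both directions. Of 55 tested, 20 rose and 31 fell (median -0.66). Several ephrin receptors of the A class and a neurotrophin receptor were among those that fell: EPHA3, which guides axons, was at 59.4 and 53.8 CPM in WT, 0.33 and 0.391 in KO1 and 0.397 and 0.462 in KO2, and NTRK3, the receptor of neurotrophin-3, at 109 and 99.7 CPM in WT, 2.97 and 2.09 in KO1 and 2.84 and 2.19 in KO2. EPHA5 fell from 44.2 to 1.91 CPM and EPHA7 from 67.6 to 3.69 CPM. Opposite to them, EPHA2, the ephrin receptor of epithelium, was at 49.2 and 49.5 CPM in WT, 284 and 273 in KO1 and 281 and 279 in KO2, and EPHA1 rose from 0.307 to 30.3 CPM. ERBB3, which signals as a partner of ERBB2, was at 1.57 and 1.08 CPM in WT, 138 and 138 in KO1 and 148 and 142 in KO2 (log2 change 6.76 ± 0.10 (SE), adjusted p = 2.1e-16). No knockout library overlapped WT for any of these.

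Several receptors outside the rule for named genes were chosen after their values were seen. EGFR rose from 17.4 to 260.2 CPM (log2 change 3.91 ± 0.06 (SE), adjusted p = 1.2e-16), MET, the HGF receptor, from 4.3 to 96.8 CPM, ERBB2 from 55.2 to 134 CPM, AXL from 23.6 to 133 CPM and IGF1R, which binds both insulin-like growth factors, from 127 to 328 CPM. FGFR1, an FGF receptor of neural progenitors, fell from 420.3 to 84.7 CPM (log2 change -2.31 ± 0.03 (SE), adjusted p = 6.7e-17), and KIT, the stem cell factor receptor, from 44.5 to 8.12 CPM. INSR, the insulin receptor, was at 36.1 and 34 CPM and did not pass the test (adjusted p = 0.2).

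Ligands of these receptors rose more often than they fell, with 28 up and 13 down of 46 (median 0.75). IGF2, a fetal growth factor on chr11:2129112-2149603 (GRCh38, minus strand), was at 60.7 and 61.2 CPM in WT, 4803 and 4436 in KO1 and 4907 and 4737 in KO2. It rose from 60.9 ± 0.336 CPM (SD, n = 2) to 4721 ± 202 CPM (SD, n = 4), a log2 change of 6.27 ± 0.05 (SE), adjusted p = 4.5e-19. INS-IGF2, a read-through gene that overlaps IGF2 in part on the same strand, named because of this overlap, is counted separately and rose from 35.5 to 3031 CPM. The antisense gene IGF2-AS, on the plus strand, rose from 0.858 to 7.41 CPM. Strand cannot separate reads of IGF2 and INS-IGF2 where they overlap. Since strand use is not given, reads of IGF2-AS cannot be told apart from theirs either. PDGFB, a mitogen for mesenchyme, was at 1.05 and 2.15 CPM in WT, 78.1 and 72.8 in KO1 and 77.5 and 81 in KO2. On the other side PTN, the radial glia growth factor pleiotrophin, was at 1001 and 1008 CPM in WT, 7.38 and 5.54 in KO1 and 5.09 and 4.45 in KO2 (log2 change -7.49 ± 0.05 (SE), adjusted p = 2.8e-19), and NRG3, a ligand of ERBB4, fell from 39.4 to 2.34 CPM. Knockout libraries were above WT for the first set and below it for the second in every case.

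Ligands of the EGF receptor, chosen after their values were seen, rose beside it. TGFA went from 4.42 to 53.6 CPM, AREG from no count in WT to 8.63 CPM, at least 108-fold higher, and EREG from 1 count in WT to 6.51 CPM. HBEGF also rose, from 10.01 to 39.9 CPM. EGFR and 4 of its ligands were thus higher in the same libraries.

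**Figure D3:**
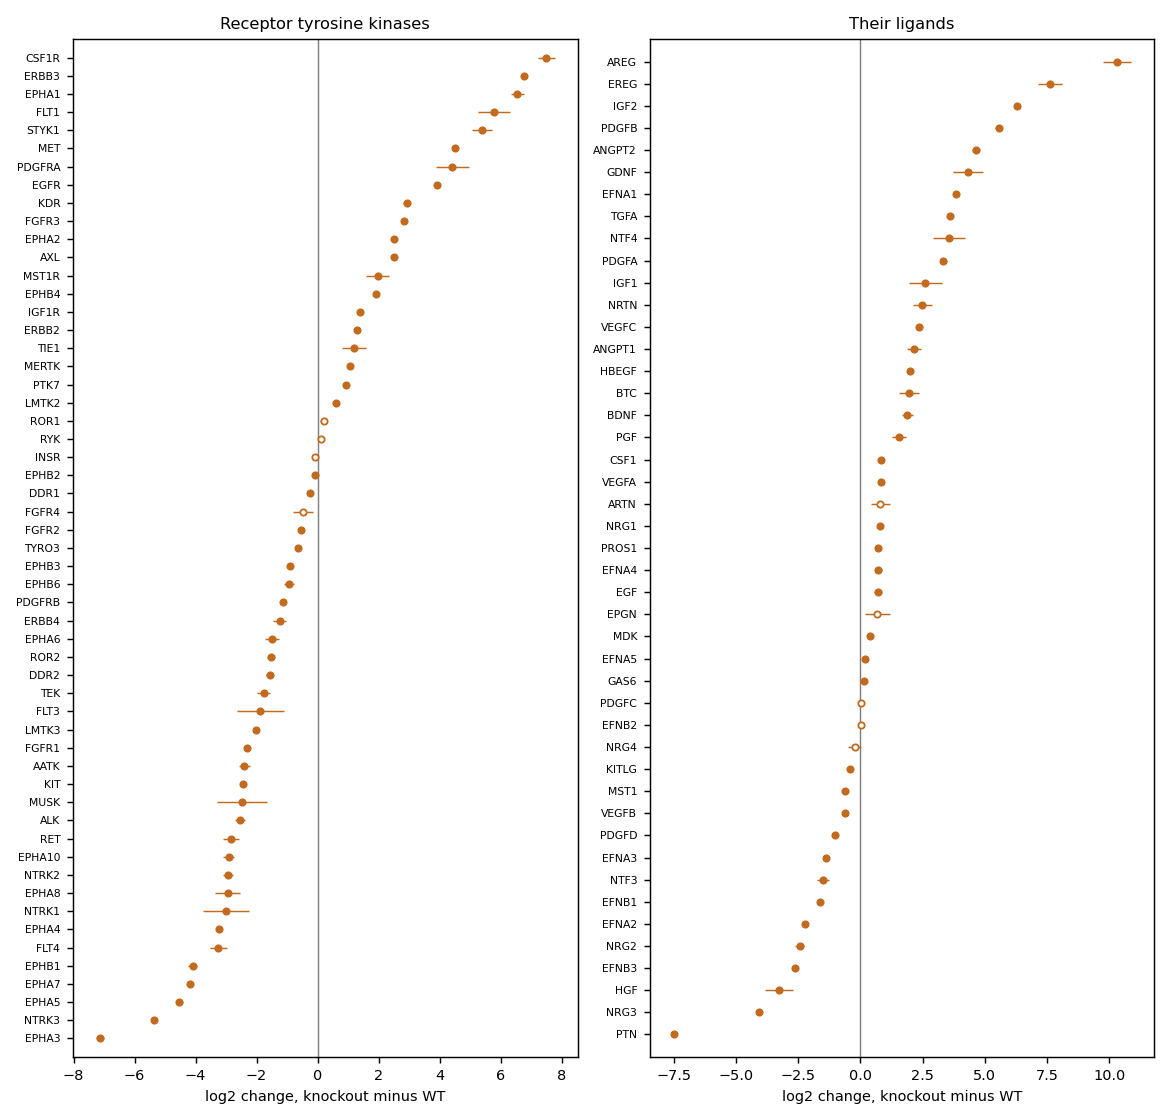
Log2 change (knockout minus WT, x axis, bars SE) of the receptor tyrosine kinases (left) and ligands (right) reported here, ordered by size; open points have an adjusted p of 0.05 or more. ERBB3 and EPHA1 lie near the top of the receptors and EPHA3 and NTRK3 at the bottom, while PTN is lowest among the ligands.

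Genes of YAP/TAZ signalling, which reads cell shape and contact, were higher almost throughout: 29 of 32 rose and 2 fell (median 1.62). CCN2, a secreted YAP target, was at 3.84 and 5.04 CPM in WT, 746 and 744 in KO1 and 750.3 and 741 in KO2, and CCN1, its relative, at 7.8 and 9.49 CPM in WT, 374 and 362 in KO1 and 360.5 and 367 in KO2. ANKRD1, a target also used in muscle, had 1 count in WT and 44.2 CPM in the knockouts, 1660.1-fold (95% counting interval 298 to 65594) higher. VGLL1, a TEAD cofactor of trophoblast and epithelium, rose from 1 count to 38.5 CPM. The 3 targets were thus far above WT in all 4 knockout libraries. The list also holds inhibitors of the pathway, and LATS2, a kinase that restrains YAP, rose from 10.5 to 64.4 CPM (named after its values were seen). TEAD3 rose from 13 to 123 CPM and TEAD2 fell from 94.2 to 60.2 CPM.

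Cytokine genes were mostly higher, with some receptors lower. In the interleukin-6 family 19 of 24 rose and 4 fell (median 2.07). LIFR, the receptor of leukaemia inhibitory factor on chr5:38474963-38608354 (GRCh38, minus strand), was at 628 and 587 CPM in WT, 47 and 47 in KO1 and 45.3 and 46 in KO2 (log2 change -3.71 ± 0.05 (SE), adjusted p = 1.1e-16), and CNTFR, of ciliary neurotrophic factor, fell from 115 to 7.79 CPM. LIF, the ligand of LIFR, was at 1.4 and 1.66 CPM in WT, 77.9 and 77.8 in KO1 and 71.2 and 79.9 in KO2. IL11, which acts through the same signalling chain, rose from 0.814 to 39.5 CPM, and IL6R, the interleukin-6 receptor, from 0.317 to 45 CPM. LIFR was low in the libraries in which LIF was high. In the interleukin-1 family 17 of 24 listed genes were tested, of which 15 rose and 1 fell (median 3.87, or 3.31 at the bound). IL1A had 1 count in WT and 45.2 CPM in the knockouts, 1701-fold (95% counting interval 305 to 67217) higher, IL1B had none in WT and 14 CPM, at least 176-fold higher, and the receptor chain IL1RAP rose from 1.44 to 64.6 CPM. IL33, the faller (named after its values were seen), went from 5.21 to 0.0797 CPM.

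In the TGF-beta and activin list 17 rose and 14 fell of 34 (median 0.13). Ligands that rose included TGFB1, from 2.4 to 125 CPM, and INHBA, which forms activin A, at 0.407 and 0.733 CPM in WT, 61.8 and 65.1 in KO1 and 63.1 and 65 in KO2. LEFTY2, an inhibitor and target of nodal and activin, had 1 count in WT and 34.1 CPM in the knockouts. GDF15, a stress-induced ligand, rose from 0.239 to 45.4 CPM. Those lower included GDF11, from 119 to 30.8 CPM, and the type I and II receptors BMPR1A, from 282 to 80.5 CPM, and ACVR2A, from 93.4 to 24.9 CPM. All 4 of the genes named here as higher were at 2.4 CPM or less in the WT mean.

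The retinoic acid binding proteins went in opposite directions within a list that had 15 of 27 genes up and 7 down. CRABP1, the retinoic acid binding protein of neural tissue, was at 82.9 and 81.2 CPM in WT, 18.5 and 20.00 in KO1 and 17.8 and 18.1 in KO2 (log2 change -2.14 ± 0.06 (SE), adjusted p = 3.5e-13). CRABP2, which carries retinoic acid to its nuclear receptors in skin, was at 16.2 and 17.7 CPM in WT, 439.8 and 429.8 in KO1 and 443 and 434 in KO2 (log2 change 4.68 ± 0.05 (SE), adjusted p = 5.5e-18). The order of the pair was the opposite in the knockouts. The synthesis enzyme ALDH1A3 rose from 55.1 to 190.1 CPM, and DHRS3, which returns retinal to retinol, from 0.52 to 20.2 CPM. CYP26A1, the breakdown enzyme (named after its values were seen), fell from 3.59 to 0.566 CPM.

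Hedgehog genes were mostly lower: 14 of 18 fell and 2 rose (median -1.92). SCUBE1, a secreted and membrane-bound glycoprotein, was at 493 and 484 CPM in WT, 7.38 and 6.39 in KO1 and 7.47 and 6.81 in KO2 (log2 change -6.12 ± 0.05 (SE), adjusted p = 6.5e-19). The coreceptors CDON, from 276 to 28.6 CPM, BOC, from 144 to 10.4 CPM, and GAS1, from 199.9 to 36.1 CPM, all fell. The output genes of the pathway, PTCH1 and GLI1 (named after their values were seen), did not pass the test: PTCH1 was at 22.6 and 23.2 CPM (adjusted p = 0.72) and GLI1 at 0.545 and 0.624 CPM (adjusted p = 0.77). GLI3, the repressor (also named after its values were seen), fell from 237 to 70.2 CPM. Components fell while these outputs gave values of similar size in both groups.

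Nuclear receptors, which respond to hormones and lipids, rose in 19 and fell in 13 of 42 cases (median 0.16). NR2E1, a neural stem cell receptor, fell from 33.8 to 0.326 CPM and RORB, of cortical neurons, from 59 to 1.65 CPM. NR2F1 was at 75 and 74.1 CPM in WT, 14 and 15.1 in KO1 and 14 and 14.6 in KO2, and its paralog NR2F2 at 32.1 and 31.1 CPM in WT, 254 and 252 in KO1 and 261 and 261 in KO2. THRA, the thyroid hormone receptor of brain, fell from 133 to 13.2 CPM, while THRB rose from 2.31 to 19.4 CPM. In both families 1 paralog was higher and the other lower in every knockout library.

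Transmitter receptors fell in 36 and rose in 4 of 43 cases (median -3.84). GRIA2, an AMPA receptor subunit, was at 232 and 216 CPM in WT, 0.33 and 0.261 in KO1 and 0.331 and 0.346 in KO2. GRIN2D, an NMDA receptor subunit of embryonic brain, went the other way at 37.7 and 43.2 CPM in WT, 152 and 132 in KO1 and 137 and 142 in KO2 (log2 change 1.8 ± 0.09 (SE), adjusted p = 9.2e-11), as did CHRNB1, an acetylcholine receptor subunit of muscle, from 8.92 to 29.8 CPM. Among protein kinase C and diacylglycerol kinases 9 rose and 12 fell of 21. PRKCA fell from 132 to 13.5 CPM, whereas PRKCH, an isoform found in differentiating keratinocytes, was at 0.233 and 1.03 CPM in WT, 57.7 and 58.3 in KO1 and 64 and 62.8 in KO2, and PRKCD rose from 4.32 to 49.7 CPM.

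Glycolysis rose in 14 and fell in 6 of 24 genes (median 0.75). LDHA, the lactate dehydrogenase subunit that favours lactate production, was at 32.5 and 32.9 CPM in WT, 344 and 372 in KO1 and 368 and 375 in KO2 (log2 change 3.48 ± 0.05 (SE), adjusted p = 5.5e-17). LDHB, the subunit of oxidative tissue, was at 474 and 492 CPM in WT, 281 and 288 in KO1 and 274 and 285 in KO2 (log2 change -0.78 ± 0.03 (SE), adjusted p = 7.4e-12). LDHA was the lower of the pair in WT and the higher in all knockout libraries by CPM, a scale not corrected for gene length. PFKP, the platelet-type phosphofructokinase, rose from 44.4 to 337 CPM and the muscle type PFKM fell from 136 to 38.6 CPM. ENO2, the neuronal enolase, fell from 214 to 54.9 CPM while ENO1 rose from 398 to 942 CPM. The glucose transporters SLC2A1, from 169 to 719 CPM, and SLC2A3, from 122 to 579.8 CPM, both rose, and so did SLC16A3, which exports lactate, at 1.92 and 1.76 CPM in WT, 123 and 123 in KO1 and 122 and 127 in KO2. LDHA, ENO1 and other glycolytic genes have pseudogene copies that may share reads.

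Of the branches of glucose use, the pentose phosphate list had 7 rises and 4 falls of 13, with TKT, a transketolase, up from 158 to 542 CPM and TALDO1, a transaldolase, from 69.3 to 244 CPM. In glycogen metabolism 12 of 19 rose and 4 fell (median 0.87). PYGL, the liver-type phosphorylase, rose from 15.2 to 144 CPM, GBE1, the branching enzyme, from 14.4 to 49.3 CPM, and GYG2, a primer protein, fell from 29.7 to 11.5 CPM. In the pyruvate and TCA cycle list 18 rose and 13 fell of 38 (median 0.13), while with libraries scaled by size alone 11 rose and 15 fell. ME1, the cytosolic malic enzyme that makes NADPH, was at 1.75 and 2.05 CPM in WT, 49.8 and 53.2 in KO1 and 51 and 54.4 in KO2. PC, pyruvate carboxylase, a glial enzyme in brain, was at 33.5 and 37.9 CPM in WT, 4.29 and 5.02 in KO1 and 5.09 and 3.75 in KO2. OGDH rose from 83.3 to 225 CPM and IDH1, the cytosolic isocitrate dehydrogenase, fell from 261 to 108 CPM. The spread of the groups did not overlap for any of these 4.

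The nuclear genes of the respiratory complexes changed little in size. Of 80, 32 rose and 26 fell (median 0.10), none rose by 2-fold or more and 1 fell that far, against 20.0% and 24.1% of all genes. The direction of this list is not fixed: with libraries scaled by size alone 13 rose and 31 fell. NDUFB9, of complex I, rose from 55.3 to 109 CPM and NDUFA6, of the same complex, fell from 53 to 34 CPM. Their summed level was 5002 to 5204 CPM in WT and 5068 to 5370 CPM in the knockouts, ranges that overlap.

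Cholesterol synthesis fell as a group, with 21 of 26 genes down and 4 up (median -0.73, or -0.91 with libraries scaled by size alone). The enzymes form 1 chain from acetyl-CoA to cholesterol, which SREBF2, a factor released by low sterol, keeps on. ACAT2, the first step, was at 125 and 122 CPM in WT, 27.9 and 30.04 in KO1 and 26.9 and 26.7 in KO2 (log2 change -2.15 ± 0.04 (SE), adjusted p = 3.2e-15). MVD, which makes the isoprene unit, was at 89.6 and 86.7 CPM in WT, 30.2 and 32.5 in KO1 and 31.9 and 33.9 in KO2, and LSS, which closes the sterol rings, at 191 and 196 CPM in WT, 80.01 and 77 in KO1 and 82.7 and 75.8 in KO2. All 3 were lower in every knockout library. HMGCS1, which makes HMG-CoA, and SREBF2 itself, both named after their values were seen, fell from 749 to 435 CPM and 397 to 205 CPM. SC5D, which desaturates a late sterol, was among those that rose, from 98.8 to 125 CPM.

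Proteins that move sterol out of lysosomes and cells were more often higher, with 10 up and 6 down of 17 (median 0.87). APOE, the lipid carrier, rose from 13 to 102 CPM, NPC1, which exports cholesterol from lysosomes, from 40.7 to 162 CPM, and its partner NPC2 from 26.3 to 122 CPM. ABCG1, an efflux pump, was at 31.6 and 31.1 CPM in WT, 3.85 and 3.91 in KO1 and 4.03 and 3.41 in KO2 and fell (log2 change -3.04 ± 0.09 (SE), adjusted p = 2.2e-13). NPC1 and NPC2 rose in the libraries in which most synthesis genes fell.

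RefSeq promoter windows (build GRCh38.p14, 250 bases before to 50 after the first listed start) were found for 19 of the 26 cholesterol genes. The sterol element TCACNCCAC, searched on both strands, occurred in 1 of them (5.26%) and in 1.15% of 27305 promoters. The match lay in SREBF2 itself, which fell in the knockouts, and its window is shown because it was the only one in the list. The 9 bases of the match are in capitals, 5′ to 3′ on the gene's strand (chr22:41832915-41833034, plus strand).

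SREBF2: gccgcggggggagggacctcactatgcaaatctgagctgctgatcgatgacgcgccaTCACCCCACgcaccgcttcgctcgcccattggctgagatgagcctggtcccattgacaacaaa

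A match is a description of letters and does not show a site in use, and a window with none says nothing of the factor.

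Fatty acid synthesis was lower in 14 and higher in 8 of 23 genes (median -0.29). SCD, which makes monounsaturated fatty acids, was at 733 and 722 CPM in WT, 190.2 and 206 in KO1 and 203 and 209 in KO2 (log2 change -1.85 ± 0.03 (SE), adjusted p = 7.6e-16). FADS2, the first desaturase of polyunsaturated chains, fell from 424 to 89.2 CPM and ELOVL2, which lengthens them towards the docosahexaenoic acid of brain, was at 174 and 169 CPM in WT, 12.8 and 13.7 in KO1 and 12 and 11.4 in KO2. ELOVL1, which makes the very long saturated chains of skin ceramides, rose from 13.3 to 105 CPM and ELOVL7 from 1.2 to 18.5 CPM. The elongases thus went both ways. FASN, the synthase itself (named after its values were seen), fell from 476 to 397 CPM, a log2 change of -0.26 ± 0.04 (SE).

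Fatty acid oxidation was split, with 12 up and 16 down of 30 (median -0.18). ACADVL, for very long chains, rose from 115 to 299.7 CPM and ACADM, for medium chains, fell from 74.8 to 33.7 CPM, as did CPT1C, the brain form of the carnitine enzyme, from 76.9 to 10.3 CPM. Among fatty acid binding and droplet genes 10 rose and 11 fell of 24. PLIN2, which coats lipid droplets, rose from 11 to 66.9 CPM, ACSL5 rose from 0.132 to 15 CPM, and ACSL6, a neuronal acyl-CoA synthetase, fell from 30.8 to 0.593 CPM.

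**Figure D4:**
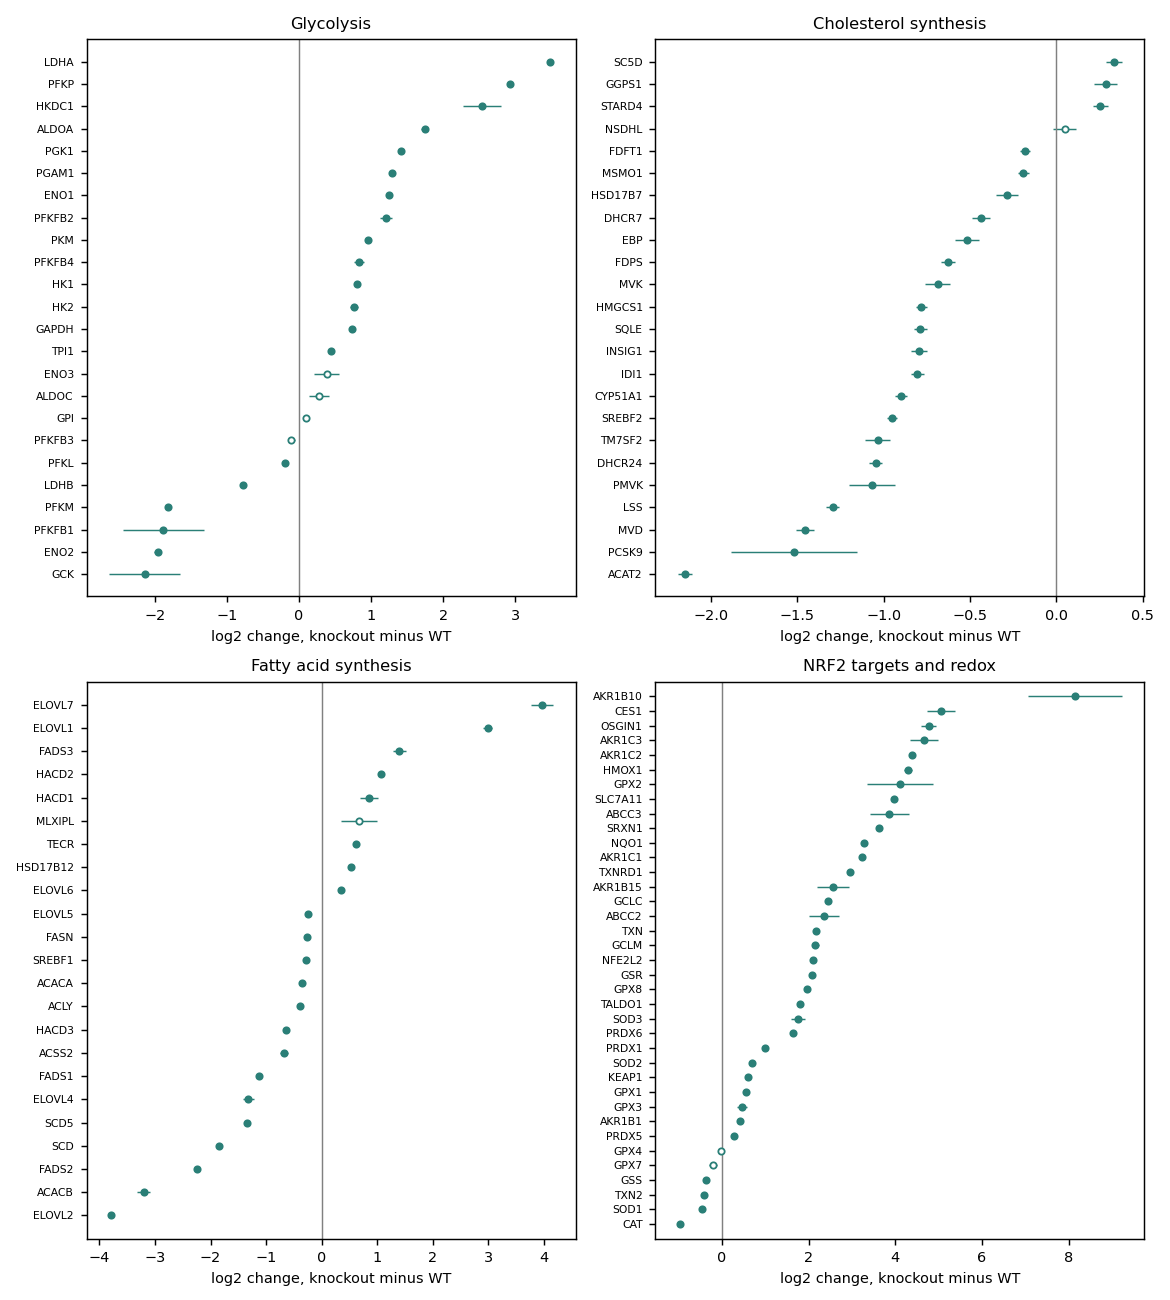
Log2 change (knockout minus WT, x axis, bars SE) of the tested genes reported here of glycolysis, cholesterol synthesis, fatty acid synthesis and the NRF2 and redox list; open points have an adjusted p of 0.05 or more. The cholesterol genes lie mostly to the left of 0, and 31 of 37 redox genes were higher.

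Sphingolipid genes went both ways, with 20 up and 16 down of 41 (median 0.16), and with 18 each way when libraries were scaled by size alone. UGCG, which makes glucosylceramide, was at 28.1 and 30.7 CPM in WT, 375 and 363 in KO1 and 356 and 369 in KO2 (log2 change 3.63 ± 0.05 (SE), adjusted p = 6.8e-17), and SGMS2, which makes sphingomyelin at the plasma membrane, rose from 1.45 to 69 CPM. SPTLC3, an entry enzyme strong in skin, rose from 2.07 to 22.7 CPM. Among the genes that fell were 3 enzymes of ganglioside synthesis. ST8SIA1 was at 36.9 and 36 CPM in WT, 1.43 and 1.63 in KO1 and 1.12 and 1.5 in KO2 and B4GALNT1 at 50.3 and 51.8 CPM in WT, 1.49 and 1.11 in KO1 and 1.06 and 1.1 in KO2, and ST3GAL5, which makes the first ganglioside, fell from 31.8 to 9.24 CPM. The 2 later enzymes were under 2 CPM in each knockout library.

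Genes of surface sugars were more often higher, with 28 up and 14 down of 46 genes of O-glycosylation, sialic acid and fucose (median 0.81). FUT9, which makes the Lewis X sugar of neural stem cells, was at 372 and 335 CPM in WT, 1.82 and 0.586 in KO1 and 0.992 and 2.19 in KO2 (log2 change -7.94 ± 0.12 (SE), adjusted p = 2.1e-16). ST6GALNAC5, a brain ganglioside sialyltransferase, was at 306 and 304 CPM in WT, 0.33 and 0.912 in KO1 and 1.19 and 1.39 in KO2, and ST8SIA2, which makes polysialic acid on NCAM, fell from 203 to 11.5 CPM. On the other side GALNT5, which starts mucin-type chains, was at 1.98 and 1.86 CPM in WT, 160.2 and 172 in KO1 and 169 and 169 in KO2, and B3GNT3, which extends them, rose from 0.161 to 44.8 CPM. FUT3, the Lewis blood group enzyme, rose from 0.205 to 26.7 CPM. The 3 neural sugar genes were lower and the 3 others higher in all 4 knockout libraries.

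Eicosanoid genes rose in 15 and fell in 9 of 28 cases (median 0.25). PTGS2, the inducible cyclooxygenase on chr1:186671791-186680427 (GRCh38, minus strand), was at 0.0582 and 0.0978 CPM in WT, 301 and 301 in KO1 and 299.8 and 302 in KO2. With 3 counts in WT it was 3776-fold (95% counting interval 1292 to 18310.2) higher. PTGES, the next enzyme towards prostaglandin E2, was at 1.22 and 0.636 CPM in WT, 140.2 and 140.4 in KO1 and 135 and 144 in KO2 (log2 change 7.26 ± 0.12 (SE), adjusted p = 3.6e-16), and the prostaglandin E2 receptor PTGER4 rose from 0.502 to 12.1 CPM. ALOX5, the first enzyme of leukotriene synthesis, had 3 counts in WT and 51.7 CPM in the knockouts, 649-fold (95% counting interval 222 to 3149.8) higher. PTGS1, the constitutive cyclooxygenase (named after its values were seen), fell from 7.64 to 0.51 CPM. The enzymes from arachidonate to prostaglandin E2 and a receptor for it were high in the same libraries.

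Serine and one-carbon genes fell in 16 and rose in 10 of 36 cases (median -0.16). The mitochondrial folate enzymes MTHFD2, at 38.1 and 34.7 CPM in WT, 145 and 152 in KO1 and 148 and 156 in KO2, and MTHFD1L, from 21.9 to 86.2 CPM, rose. TYMS, thymidylate synthase, fell from 111 to 26.8 CPM. GLDC, of the glycine cleavage system, fell from 48.9 to 10.8 CPM. Of the serine pathway, named after its values were seen, PHGDH was at 106 and 109.9 CPM (adjusted p = 0.27) and PSAT1 fell from 227 to 85.7 CPM.

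Nucleotide synthesis fell in 18 and rose in 12 of 34 genes. RRM2, the ribonucleotide reductase subunit of dividing cells, was at 134 and 135 CPM in WT, 12.8 and 13.4 in KO1 and 13.2 and 15.2 in KO2, and RRM2B, the subunit used outside S phase, at 53.2 and 50.7 CPM in WT, 189 and 176 in KO1 and 183 and 178 in KO2. The pair moved in opposite directions in each knockout library. Nucleotide breakdown and salvage rose in 13 and fell in 8 of 28, with UPP1, uridine phosphorylase, up from 5.59 to 128 CPM and NT5E, which makes adenosine outside the cell, from 1.29 to 23.9 CPM.

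In the glutamine, arginine and proline list 10 rose and 13 fell of 28 (median -0.37). ABAT, which degrades GABA, fell from 159 to 36.4 CPM, ALDH5A1, the next step, from 60.5 to 10.7 CPM, and NAT8L, which makes the neuronal metabolite N-acetylaspartate, from 66.8 to 7.12 CPM. NOS3, a nitric oxide synthase, rose from 0.779 to 51.2 CPM. In the branched-chain, lysine and tryptophan list 13 rose and 13 fell of 31. BCAT1, the cytosolic transaminase of branched-chain amino acids, was at 46.8 and 46.2 CPM in WT, 423 and 443 in KO1 and 427 and 451 in KO2 (log2 change 3.23 ± 0.05 (SE), adjusted p = 1.9e-16). KYNU and KMO, of the kynurenine branch of tryptophan breakdown, rose from 1.98 to 75.9 CPM and 0.418 to 16.8 CPM. AASS, the first enzyme of lysine breakdown, was at 138 and 135 CPM in WT, 16.4 and 17.1 in KO1 and 14.8 and 16 in KO2 and ALDH7A1, further along, fell from 114 to 45.2 CPM.

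Polyamine and creatine genes rose in 8 and fell in 7 of 20 cases, or 7 and 9 with libraries scaled by size alone. SAT1, which acetylates polyamines for export, was at 122 and 120.4 CPM in WT, 1233 and 1289 in KO1 and 1292 and 1287 in KO2 (log2 change 3.39 ± 0.04 (SE), adjusted p = 4.2e-18), and ODC1, the first enzyme of their synthesis, fell from 350.3 to 162 CPM. CKB, the brain creatine kinase, was at 803 and 823 CPM in WT, 138 and 132 in KO1 and 125 and 135 in KO2, and GATM, which starts creatine synthesis, fell from 34.4 to 7.56 CPM. CKMT1A, a mitochondrial creatine kinase, rose from 8.11 to 20.1 CPM, though it may share reads with its copy CKMT1B, which rose from 8.72 to 16.9 CPM.

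Redox genes were the metabolic list with the most rises relative to its size apart from the ribosome: 31 of 37 rose and 4 fell (median 2.11). NRF2, encoded by NFE2L2, turns on enzymes that make glutathione and reduce thioredoxin, and is held back by KEAP1. AKR1C2, an aldo-keto reductase, was at 8.73 and 8.46 CPM in WT, 169 and 179 in KO1 and 182 and 183 in KO2, though it may share reads with close copies such as AKR1C1. HMOX1, which breaks down haem, was at 4.19 and 3.52 CPM in WT, 79 and 74.8 in KO1 and 74.7 and 73.2 in KO2. SLC7A11, which imports cystine for glutathione, was at 17.2 and 15 CPM in WT, 265 and 252 in KO1 and 247 and 238 in KO2 (log2 change 3.96 ± 0.06 (SE), adjusted p = 2.7e-16). The knockout libraries were more than 10-fold above WT for these 3. TXNRD1, thioredoxin reductase, and GCLM, of glutathione synthesis, were chosen after their values were seen and rose from 148 to 1148 CPM and 17.3 to 77.2 CPM. CAT, catalase, fell from 49.1 to 25.3 CPM and SOD1, superoxide dismutase, from 97.7 to 70.9 CPM.

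The antioxidant element TGACNNNGC, searched on both strands, was in the promoter windows of 3 of 25 listed redox genes with an entry (12%) and of 13.6% of all 27305. In the 250 bases before the start alone the shares were 12% and 11%, so the order of the shares turned with the window. The windows of those 3, GCLM, GPX2 and TXNRD1, are shown because all 3 rose, GPX2 (named after its values were seen) from 0.0978 to 1.93 CPM. The matched bases are in capitals, and the sequences run 5′ to 3′ on each gene's strand (RefSeq, GRCh38.p14). GCLM is at chr1:93909431-93909550, minus strand, GPX2 at chr14:64942806-64942925, minus strand, and TXNRD1 at chr12:104215619-104215738, plus strand.

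GCLM: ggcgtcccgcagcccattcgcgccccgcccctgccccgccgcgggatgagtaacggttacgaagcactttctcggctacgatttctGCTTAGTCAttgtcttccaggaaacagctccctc

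GPX2: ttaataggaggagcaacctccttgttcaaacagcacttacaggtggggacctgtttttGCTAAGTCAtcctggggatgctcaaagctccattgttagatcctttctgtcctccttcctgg

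TXNRD1: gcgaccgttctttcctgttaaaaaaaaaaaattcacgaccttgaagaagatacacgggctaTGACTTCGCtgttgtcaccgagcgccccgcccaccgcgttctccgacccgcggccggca

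A second match in the TXNRD1 window, across its start, is not shown. Motifs of factors of the surface ectoderm list were looked for in the same way among its 16 members with an entry. The grainyhead motif AACCNGTT was in 0 of 16 and in 1.73% of all promoters, and the AP-2 motif GCCNNNGGC in 3 of 16 (18.8%) and in 23% of all. The AP-2 matches were in KLF4, GATA3 and PRDM1.

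Detoxification genes rose in 21 and fell in 13 of 40 cases (median 0.28). AHR, the receptor of dioxin-like compounds and tryptophan products, was at 8.26 and 6.7 CPM in WT, 172 and 166 in KO1 and 165 and 169.9 in KO2 (log2 change 4.5 ± 0.07 (SE), adjusted p = 3.3e-16). CYP1A1, its best known target, rose from 0.95 to 53.2 CPM, and CYP1B1, another (named after its values were seen), from 85.3 to 616 CPM. The receptor and both targets were above WT in each knockout library. Of the glutathione transferases, GSTA4 fell from 153 to 19 CPM and GSTM2 from 63 to 11.6 CPM, while GSTP1 (named after its values were seen) rose from 173 to 437 CPM. GSTM genes are near copies of each other and may share reads.

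Iron and metal genes rose in 19 and fell in 4 of 25 cases (median 0.94). FTL, the ferritin light chain that stores iron, was at 265 and 270.2 CPM in WT, 3050.1 and 3227 in KO1 and 3252 and 3254 in KO2 (log2 change 3.58 ± 0.05 (SE), adjusted p = 3.2e-17), and the heavy chain FTH1 (named after its values were seen) rose from 819 to 4291 CPM. Ferritin genes have many pseudogenes that may share reads. CP, the copper oxidase ceruloplasmin, rose from 0.818 to 34.8 CPM, STEAP3, which reduces endosomal iron, from 2.03 to 47.1 CPM, and SLC39A8, a zinc and iron importer, from 3.91 to 51.6 CPM. TFRC, which imports iron (named after its values were seen), also rose, from 93.7 to 353 CPM. FTL was above WT in every knockout library.

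Across 306 solute carriers, the largest family of membrane transporters, 146 rose and 109 fell (median 0.26). SLC1A2, the glutamate transporter of astrocytes and radial glia, was at 289.8 and 262 CPM in WT, 2.04 and 1.11 in KO1 and 1.39 and 1.39 in KO2 (log2 change -7.52 ± 0.09 (SE), adjusted p = 1.6e-17). SLC17A7 and SLC17A6, which load glutamate into vesicles, fell from 50.1 to 0.335 CPM and 33.9 to 0.343 CPM. SLC7A5, a carrier of large neutral amino acids, was at 58.6 and 57.9 CPM in WT, 559.5 and 541 in KO1 and 535 and 546 in KO2 (log2 change 3.23 ± 0.04 (SE), adjusted p = 1.7e-17), and its relative SLC7A8 fell from 51.9 to 25.7 CPM. The 3 glutamate carriers were thus lower, and SLC7A5 higher, in every knockout library.

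Genes that share a function were set side by side in 35 pairs. The first was listed as neural and the second as epithelial or widely used. This sorting was loose and was not checked, and genes such as STMN1, DPYSL2 and FGFR3 may not meet it. In 24 pairs the first fell and the second rose. Vesicle fusion genes were such a case: SNAP25 fell from 363 to 4.0 CPM and SNAP23 rose from 24.7 to 76.6 CPM, VAMP2 fell from 153 to 51.5 CPM and VAMP8 rose from 0.438 to 82.1 CPM. Non-muscle myosin MYH10 fell from 427 to 171 CPM and MYH9 rose from 281 to 1766 CPM. The second gene was the higher of the pair in the knockout mean in each of these cases, by CPM.

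The other pairs differed. In 5 pairs both genes rose, as with SLC2A3 and SLC2A1, and in 3 both fell, as with STMN2 and STMN1 and with DPYSL3 and DPYSL2. FGFR3 rose from 5.23 to 37 CPM and FGFR2 fell from 22.6 to 15.6 CPM, the reverse of the majority. ALDOC and ACTL6A did not pass the test, although their partners did. The pairs were drawn up with earlier results of these libraries known, so their count is a description.

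**Figure D5:**
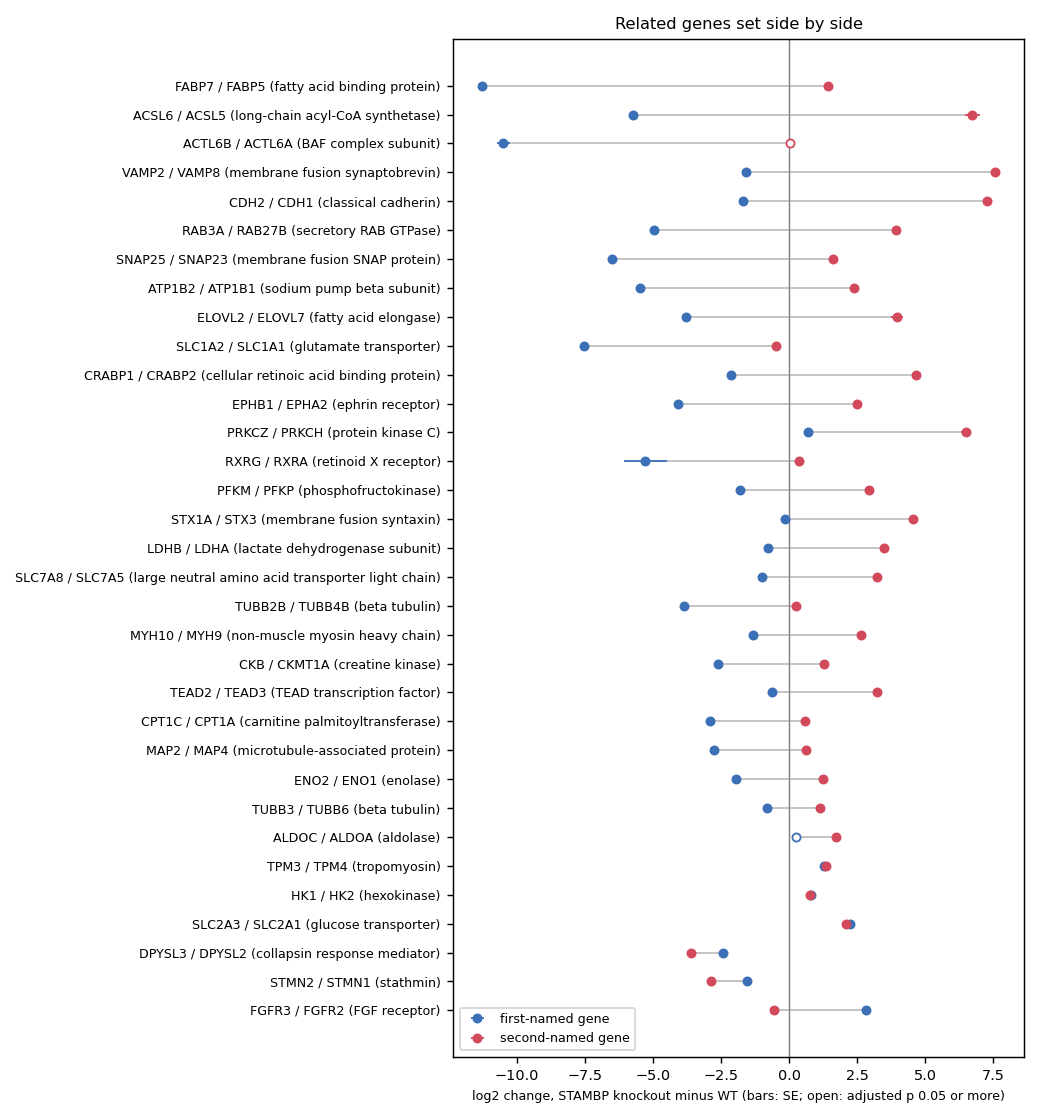
Log2 change (knockout minus WT, x axis, bars SE) of both genes in 33 of the 35 pairs with a shared function, blue for the first-named and red for the second; open points have an adjusted p of 0.05 or more. In 23 of the pairs drawn blue lies left of 0 and red right of it, and FGFR3 with FGFR2 at the bottom shows the reverse.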

How the data were processed

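RNA was sequenced from 10 libraries, of which 6 (2 WT, 2 KO1, 2 KO2) are compared here. The deposited values are whole-number read counts per gene. Per the submitters' processing notes, the authors' tools included fastp 0.20.0, RSEM 1.2.4 and DESeq2 with build hg38 (GRCh38); the aligner, the annotation release and the use of strand are not given in the sources used here. Of 60898 rows, 8314 carry a MSTRG name and 667 of those no Ensembl ID.

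Counts were tested with edgeR 4.0.16 (R 4.3.3, limma 3.58.1) by the quasi-likelihood test. It used TMM scaling, edgeR's filter on low counts, 1 mean for each of 5 groups over all 10 libraries, and the mean of KO1 and KO2 minus WT. P-values were Benjamini-Hochberg adjusted over 21063 genes and called under 0.05. The knockout mean weights both lines equally. The procedure was run on simulated counts with few genes changed, so that run does not test TMM scaling when most genes change. Floors are 3 counts over a group, and counting intervals are 95%.

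Members were counted in 53 gene lists and 35 gene pairs, all chosen with earlier results of these data known. Values are given for up to 4 rises and 4 falls per list among genes at 10 CPM or more, for pairs, and for genes said to be named after their values were seen; some results that this rule names are not reported here. Groups came from the titles. Between libraries of a group, chi-square per gene was 2.49 to 3.19, so none was a repeat deposit within sampling noise. Alternatives were DESeq2 1.42.0, other scalings and filters, a replicate block, each line alone, fits without the CFLAR or all rescue libraries, and each library left out. Gene positions are from GENCODE 29 and promoters from RefSeq.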

Additional observations from a re-analysis of the deposited data

How the results depend on the processing

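Between 13746 (with at least 50 counts in 2 libraries, of 16061 tested) and 16826 genes (with no filter) were called under the alternatives, against 16055, and each count of higher or lower genes stayed within 1.5 times its value. Leaving out a library gave 7215 to 7668 higher and 7699 to 8353 lower genes. Replicate numbers did not pair the libraries (correlations of deviations 0.0115 to 0.0719), and a replicate block gave 7743 higher and 8293 lower. Library size alone moved the median log2 change by -0.18 and gave 6646 higher and 9450 lower genes, so 41.3% of calls were higher in place of 48.3%. Under it the pyruvate and TCA list had 11 rises and the respiratory complexes 13. With at least 50 counts in 2 libraries, rises were 1 for blood cells, 2 for endothelium, 2 for lung, gut and liver and 5 for differentiated keratinocytes, since fewer genes were tested. Lung, gut and liver rises ranged from 4 to 7 with a library left out, the 4 without the second WT library. Of HOX genes, 1 was higher and 1 lower with no filter, of 25 tested, and 0 to 1 were higher with a library left out. Of 430 named genes 411 kept their call and sign throughout. Signs turned for genes that were not called: the log2 change of ACTL6A turned (-0.15 by library size alone, -0.000244 without the filter), as did the log2 change of GLI1 (-0.11 in KO2 alone, -0.20 to 0.62 with a library left out, the lowest without the second WT library), the log2 change of PHGDH (-0.13) and the log2 change of VIM (-0.11) by library size alone, and the log2 change of PTCH1 (-0.14 by library size alone, -0.091 in KO2 alone, -0.025 to 0.076 with a library left out, the lowest without the first KO1 library). VIM was called higher under 6 other alternatives, at 0.09 by DESeq2, and the cause was not tested. With 2 WT libraries, genes under about 1 CPM rest on few counts.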

Other observations

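Genes of the ribosome rose by small amounts in large numbers. Of 83 tested genes of cytosolic ribosomal proteins 76 rose and 2 fell (91.6% higher, against 36.8% of all genes), with a median log2 change of 0.50. With libraries scaled by size alone 68 rose and 7 fell. At 2-fold or more 4 rose, among them RPS18, from 264 to 553 CPM, and RPL22L1, a paralog of a large subunit protein, from 7.24 to 19.0 CPM. Many of these genes have pseudogenes that may share reads. Of 78 genes of the mitochondrial ribosome 48 rose and 10 fell (median 0.36), or 39 and 19 with libraries scaled by size alone, and MRPS15 rose from 19.0 to 56.0 CPM.

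Zinc finger genes of the ZNF series, most of which encode DNA-binding repressors of vertebrate genomes, leaned the other way. Of 501 tested, 274 fell and 122 rose (54.7% lower, against 39.4% of all genes), with a median log2 change of -0.38, and 315 fell and 96 rose with libraries scaled by size alone. At 2-fold or more 117 fell and 37 rose.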
